A study of Mus musculus with 4 samples.

Results

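Cornification is the last step of keratinocyte differentiation, and 10 mouse genes that carry it out were followed in mammary basal epithelial cells grown with Wnt3A. They were Tgm1, Tgm3, Krtdap, Sbsn, Cnfn, Calml3, Klk7, Cdsn, Dsg1a and Dsc1, taken by name with earlier results of these data known. Every probe set whose only gene symbol in the platform annotation was one of these was used, which gave 14 probe sets for 10 genes. There were 45037 probe sets other than array controls, and 18193 genes had a probe set of their own. Tgm3 and Dsc1 had 2 probe sets each, Sbsn had 3 and the other members had 1. Because of how the members were chosen, shares over all probe sets set beside theirs are a description and no test.

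Mammary glands of virgin female CD1 mice 8 to 12 weeks old, with no mutation or transgene named, were the source of the cells. Sorting kept the Lin-, CD24+, CD29hi fraction, which the labels call mammary stem cells and which also holds other basal and myoepithelial cells. They formed colonies in growth factor reduced Matrigel, a basement membrane gel, and all cultures received the ITS supplement and 50 ng/ml EGF. The treated cultures, Wnt3A 1 and Wnt3A 2, received 200 ng/ml of purified Wnt3A, a secreted ligand of the canonical Wnt pathway, and the control cultures, control 1 and control 2, received its vehicle, PBS with 1% CHAPS. Colonies were harvested for RNA 6 to 7 days into passage 2, and each group had 2 single-colour Affymetrix arrays. Whether arrays within a group stem from different mice or different cultures is not stated in the labels, so p-values reflect only the spread between these arrays, which may be technical.

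In a stratified epithelium, keratinocytes that leave the basal layer build a cornified envelope, in which transglutaminases crosslink proteins beneath the plasma membrane. Desmosomes between these cells are altered to corneodesmosomes, which hold the outer layers together by corneodesmosin and the cadherins desmoglein 1 and desmocollin 1, until kallikrein proteases cut them and cells are shed. The mammary gland has a basal and a luminal layer and does not cornify in normal tissue, although mammary epithelium can undergo squamous differentiation.

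Deposited values are log2 expression minus the median of the same probe set over the 4 arrays, so they show differences between arrays and no absolute level. By this construction the 2 middle arrays of a probe set carry the same value with opposite signs. The spacing of the stored numbers placed all 14 member probe sets at log2 4 or above in every array, 8 of them at log2 8 or above. Of all probe sets, 33.4% were placed at log2 8 or above and 19.8% below log2 4. Values that happen to fall on a coarser spacing can place a probe set too high. Over all probe sets Wnt3A 2 had 546 values more than 1 log2 unit above the median, against 124 in Wnt3A 1, 160 in control 1 and 304 in control 2, and the 4 array medians lay between -0.016 and 0.02. The treatment check gene Axin2, a feedback target of canonical Wnt signalling, was at 0.60 and 0.19 in Wnt3A 1 and Wnt3A 2, against -0.27 and -0.59 in control 1 and control 2, as the mean of its 2 probe sets.

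Most cornification genes had their highest value in the same array, Wnt3A 2. It was the highest of the 4 arrays for 13 of 14 member probe sets, against 21.5% of all probe sets, and the exception was one probe set of Tgm3. Wnt3A 1 lay much closer to the controls: over the member probe sets the median distance from the control mean was 0.31 log2 units in Wnt3A 1 and 1.48 in Wnt3A 2, against 0.03 and -0.02 over all probe sets. Control 1 was the lowest array for 9 of the 14, against 22.1% of all probe sets. The largest mean differences were those of Dsc1 (2.90 log2 units by one probe set) and Cnfn (1.98), and Calml3 (-0.26) had the lowest.

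No member passed the test. Limma, a linear model with moderated variances, called 0 of 45037 probe sets at a Benjamini-Hochberg adjusted p under 0.05 (0.0%), with 2801 at an unadjusted p under 0.05, and the members' adjusted p-values ran from 0.809 to 1.0. Their unadjusted p-values ran from 0.0548 to 0.756, so 0 of 14 were under 0.05 in the higher direction, against 2.98% of all probe sets. An exact permutation test of 2 against 2 arrays cannot give a two-sided p below 0.33. Member values are therefore given as measured differences, with the standard error (SE) of the moderated fit.

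Both Wnt3A arrays lay above both controls for 9 of 14 member probe sets and below both for 0, against 17.4% of all probe sets above. These 9 came from 6 genes, namely Tgm1, Krtdap, Sbsn, Cnfn, Dsc1 and one probe set of Tgm3. The gap between the lower Wnt3A array and the higher control was at least 0.25 log2 units for 4 of 14, against 3.15% of all probe sets, and ran from 0.03 to 0.66 among the 9. A mean difference of 1 log2 unit or more was reached by 6 of 14, against 0.881% of all probe sets, and the median over the 14 was 0.95, against 0.01 over all. Without Wnt3A 2 this median was 0.31, and without Wnt3A 1 it was 1.48.

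**Figure D1:**
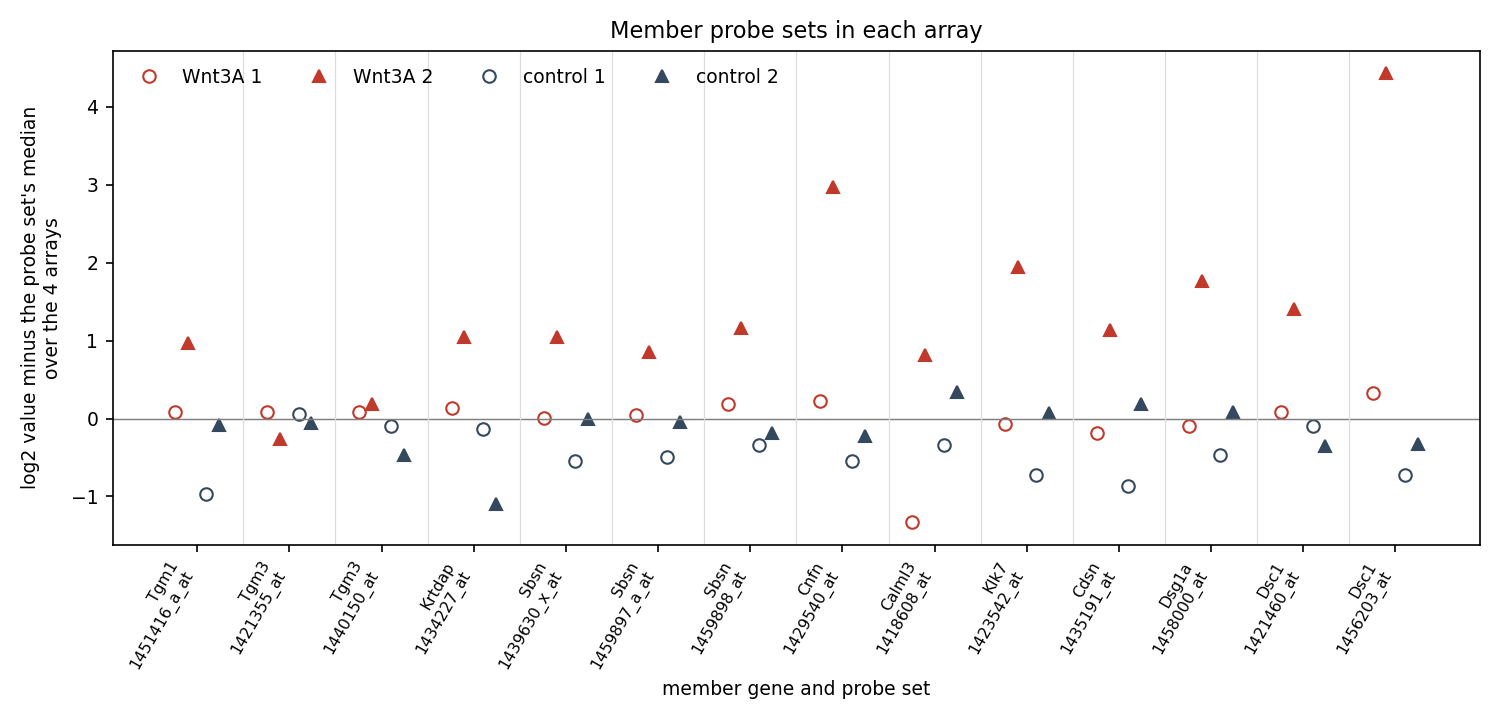
Each column is one probe set of a member gene, and each point is one array's log2 value minus that probe set's median over the 4 arrays, with both Wnt3A arrays (red) left of both controls (dark blue). Wnt3A 2 (filled red triangle) is the top point in 13 of 14 columns and reaches 4.43 for one Dsc1 probe set, and Wnt3A 1 (open red circle) sits near the controls in most columns.

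The enzymes that crosslink the envelope differed from each other. Tgm1, the membrane-bound transglutaminase of keratinocytes, was at 0.08 and 0.97 in Wnt3A 1 and Wnt3A 2, against -0.97 and -0.08 in control 1 and control 2. The groups did not overlap, but Wnt3A 1 lay only 0.16 above control 2. The mean difference was 1.05 ± 0.44 log2 units (SE, n = 2 arrays per group), a 2.07-fold difference, and it was 0.60 when either Wnt3A 2 or control 1 was left out.

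Tgm3, a transglutaminase that is cut by proteases to become active and is also prominent in the hair follicle, gave small values. One of its probe sets was at 0.09 and 0.18 in Wnt3A 1 and Wnt3A 2, against -0.09 and -0.47 in control 1 and control 2, a difference of 0.42 ± 0.17 with no overlap. The other was at 0.08 and -0.26 in the Wnt3A arrays and 0.06 and -0.06 in the controls, a difference of -0.09 ± 0.17. Its groups overlapped, and Wnt3A 2 was its lowest array, which held for no other member probe set.

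Krtdap and Sbsn encode small secreted proteins of suprabasal keratinocytes, keratinocyte differentiation associated protein and suprabasin, and flank Dmkn, which encodes dermokine, in one gene cluster. Krtdap was at 0.13 and 1.05 in Wnt3A 1 and Wnt3A 2, against -0.13 and -1.10 in control 1 and control 2. Control 2 was its lowest array, and its groups did not overlap. The difference was 1.20 ± 0.47 log2 units, 0.74 without Wnt3A 2 and 0.72 without control 2.

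The 3 probe sets of Sbsn, which share one gene and so are not independent, differed by 0.71, 0.82 and 0.93 log2 units, each with an SE of 0.34 to 0.41. The one furthest apart was at 0.18 and 1.16 in Wnt3A 1 and Wnt3A 2, against -0.34 and -0.18 in control 1 and control 2. All 3 had Wnt3A 2 highest and control 1 lowest, with Wnt3A 1 above control 2 by 0.03 to 0.36. Without Wnt3A 2 the 3 differences were 0.30, 0.30 and 0.44.

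Stretches of the promoters of Krtdap, Sbsn, Tgm1 and Cnfn are shown. These were the members with a listed promoter whose groups did not overlap by the mean of their probe sets. Each is the 250 bases before an annotated start in RefSeq (build GRCm38.p6), written 5′ to 3′ on the gene's strand. Capitals mark matches on either strand to TGANTCA, a motif bound by AP-1 factors, or to CTTTGAT, a motif bound by Tcf/Lef factors.
Krtdap, chr7:30787655-30787904, plus strand: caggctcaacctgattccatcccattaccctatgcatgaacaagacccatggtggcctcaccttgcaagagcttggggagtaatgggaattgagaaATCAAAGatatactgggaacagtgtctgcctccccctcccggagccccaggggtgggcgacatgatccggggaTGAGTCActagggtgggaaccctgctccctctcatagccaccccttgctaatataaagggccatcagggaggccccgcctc
Sbsn, chr7:30751221-30751470, plus strand: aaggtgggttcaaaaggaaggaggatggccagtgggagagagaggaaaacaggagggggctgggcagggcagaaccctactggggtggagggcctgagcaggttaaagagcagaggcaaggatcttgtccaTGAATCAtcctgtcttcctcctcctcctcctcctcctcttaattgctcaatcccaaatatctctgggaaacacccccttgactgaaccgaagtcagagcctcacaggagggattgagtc
Tgm1, chr14:55713493-55713742, minus strand, the first of 2 listed starts: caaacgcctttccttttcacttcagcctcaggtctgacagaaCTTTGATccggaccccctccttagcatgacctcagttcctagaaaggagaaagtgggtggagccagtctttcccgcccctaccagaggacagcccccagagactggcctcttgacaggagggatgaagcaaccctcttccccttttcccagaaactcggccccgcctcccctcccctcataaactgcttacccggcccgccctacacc
Cnfn, chr7:25369725-25369974, minus strand: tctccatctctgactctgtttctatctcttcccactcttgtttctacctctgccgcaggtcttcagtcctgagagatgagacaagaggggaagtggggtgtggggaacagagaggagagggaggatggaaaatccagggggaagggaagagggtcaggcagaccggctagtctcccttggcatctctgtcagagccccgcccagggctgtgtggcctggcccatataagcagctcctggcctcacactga

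In these windows Krtdap held the AP-1 letters 81 bases before the start as TGAGTCA and the Tcf/Lef letters 154 bases before it as ATCAAAG, the reverse strand form. Sbsn held the AP-1 letters 119 bases before the start as TGAATCA. Tgm1 held the Tcf/Lef letters 208 bases before its first start, and its second window, not shown, held none of these letters. Cnfn held none either. Klk7 and Cdsn, which also had Wnt3A 2 highest, and Tgm3 held none in their windows, which are not shown. The 7 members with a listed promoter had 9 windows. Of these windows, 2 held the AP-1 letters and 2 the Tcf/Lef letters, and 0 held AACCNGTT, a motif of Grainyhead-like factors, on either strand. Among 32851 promoter windows of the same length these motifs were found in 6.75%, 3.21% and 1.79%. The letters TATAAA were also searched on both strands and are not marked above. They were in 2 of the 9 windows, those of Krtdap and Tgm3, against 12.4% of the 32851. The marked motifs do not overlap in these windows, and a match is a description of letters, not of binding.

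Cnfn and Calml3, an envelope gene and a calcium sensor gene of keratinocytes, had mean differences of opposite sign. Cnfn encodes cornifelin, a component of the cornified envelope, and was at 0.22 and 2.97 in Wnt3A 1 and Wnt3A 2, against -0.55 and -0.22 in control 1 and control 2. The groups did not overlap and Wnt3A 2 stood far above the other arrays. The difference was 1.98 ± 0.95 log2 units, a 3.94-fold difference, and it was 0.60 without Wnt3A 2 and 3.35 without Wnt3A 1.

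Calml3 encodes a calmodulin-like protein of epithelial cells. It was at -1.33 and 0.82 in Wnt3A 1 and Wnt3A 2, against -0.34 and 0.34 in control 1 and control 2, so the Wnt3A arrays held both the lowest and the highest value. Its difference was -0.26 ± 0.78 log2 units, 0.82 without Wnt3A 1 and -1.33 without Wnt3A 2. Calm4, its neighbour in the RefSeq gene order, which encodes a calmodulin-like protein of mouse skin, was at 0.04 and 3.97 in the Wnt3A arrays and at -0.70 and -0.04 in the controls, a difference of 2.37 ± 1.33.

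Klk7, which encodes a kallikrein protease that cuts corneodesmosomes, was at -0.07 and 1.95 in Wnt3A 1 and Wnt3A 2, against -0.72 and 0.07 in control 1 and control 2. The groups overlapped, since Wnt3A 1 lay below control 2. The difference was 1.26 ± 0.75 log2 units, a 2.39-fold difference, and it was 0.25 without Wnt3A 2 and 2.27 without Wnt3A 1.

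The 3 corneodesmosome genes all had Wnt3A 2 as the highest array by each of their probe sets. Cdsn, which encodes corneodesmosin, was at -0.19 and 1.14 in Wnt3A 1 and Wnt3A 2, against -0.87 and 0.19 in control 1 and control 2. Wnt3A 1 lay below control 2, so the groups overlapped. Its difference of 0.82 ± 0.59 log2 units was 0.15 without Wnt3A 2 and 0.29 without control 1.

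Dsg1a encodes one of the mouse forms of desmoglein 1, an adhesive cadherin of upper epidermal layers. It was at -0.09 and 1.77 in Wnt3A 1 and Wnt3A 2, against -0.47 and 0.09 in control 1 and control 2, with Wnt3A 1 again below control 2. The difference was 1.02 ± 0.67 log2 units, 0.10 without Wnt3A 2 and 1.95 without Wnt3A 1. Dsg1b, its neighbour and close copy, was at 0.02 and 1.54 in the Wnt3A arrays and at -0.39 and -0.02 in the controls, and because the copies are nearly alike their probe sets may share signal.

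Dsc1 encodes desmocollin 1, the partner cadherin of desmoglein 1. The probe set further apart was at 0.33 and 4.43 in Wnt3A 1 and Wnt3A 2, against -0.72 and -0.33 in control 1 and control 2, with no overlap. The difference of 2.90 ± 1.41 log2 units, a 7.47-fold difference, ranked 9 of 45037 probe sets, and the value in Wnt3A 2 ranked 2 of all values of that array. Without Wnt3A 2 it was 0.85.

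The other Dsc1 probe set was at 0.09 and 1.40 in Wnt3A 1 and Wnt3A 2, against -0.09 and -0.35 in control 1 and control 2. These groups did not overlap either, and the difference was 0.97 ± 0.47 log2 units, 0.31 without Wnt3A 2. The 2 probe sets of Dsc1 thus gave the same order of the groups and different sizes.

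**Figure D2:**
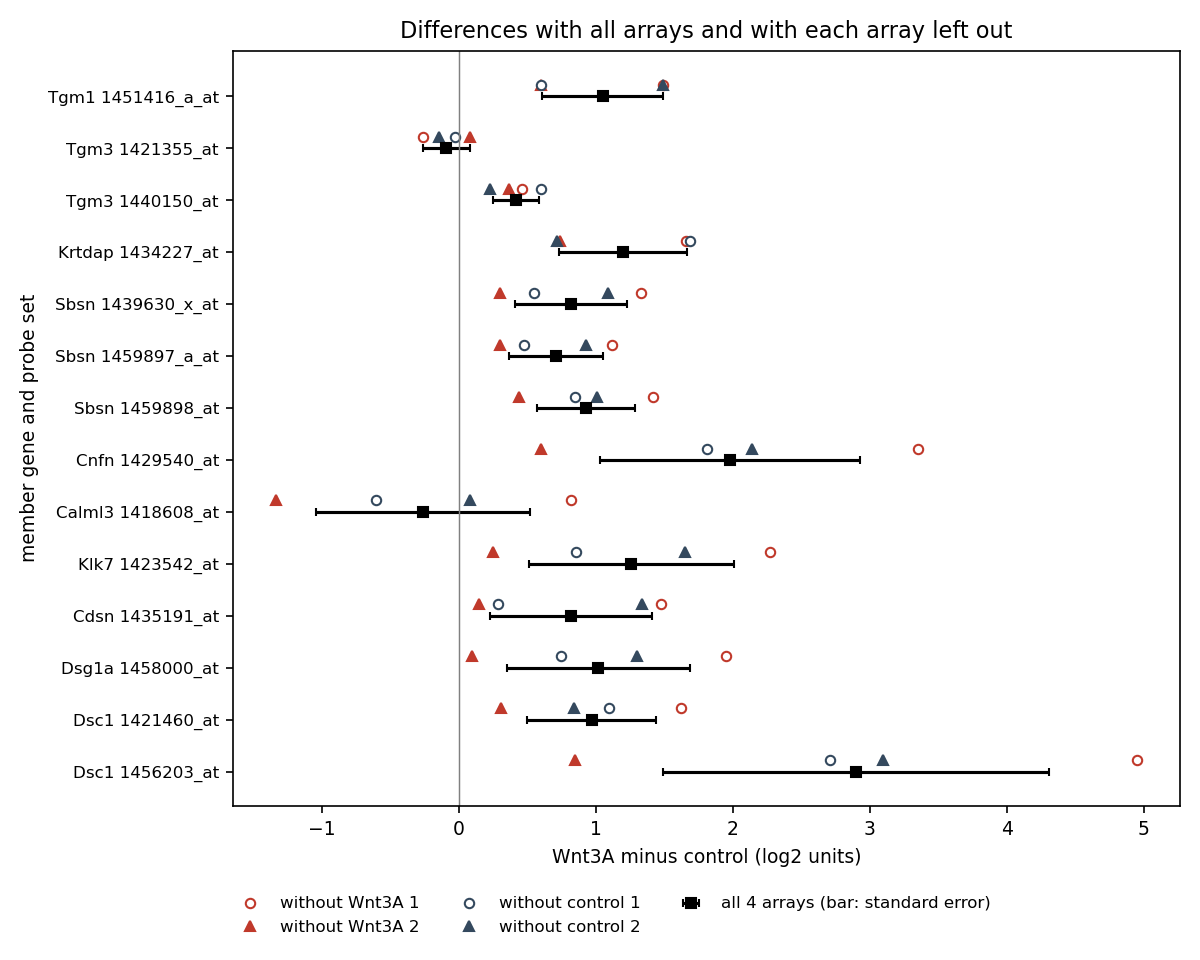
Squares are the Wnt3A minus control difference of each member probe set in log2 units with its standard error (2 arrays per group), and the smaller symbols are the same difference with one array left out. The filled red triangles (without Wnt3A 2) are the leftmost symbols for most probe sets, 0.10 for Dsg1a and 0.85 for one Dsc1 probe set, and those without Wnt3A 1 reach 4.95.

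Arrays of the same group differed more for these genes than at the median of all probe sets. The 2 Wnt3A arrays differed by a median of 1.17 log2 units over the member probe sets, against 0.19 over all probe sets, and the 2 controls by 0.50, against 0.18. This was not particular to the members. A list of envelope and suprabasal proteins, described below, had median distances from the control mean of 0.34 in Wnt3A 1 and 1.41 in Wnt3A 2. In the plane of both Wnt3A arrays against the control mean, the members lie above the line of equal values, apart from the Tgm3 probe set with overlapping groups. The distance of Wnt3A 1 from the control mean was largest for Dsc1 (0.85) and Krtdap (0.74) and lowest for Calml3 (-1.33).

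**Figure D3:**
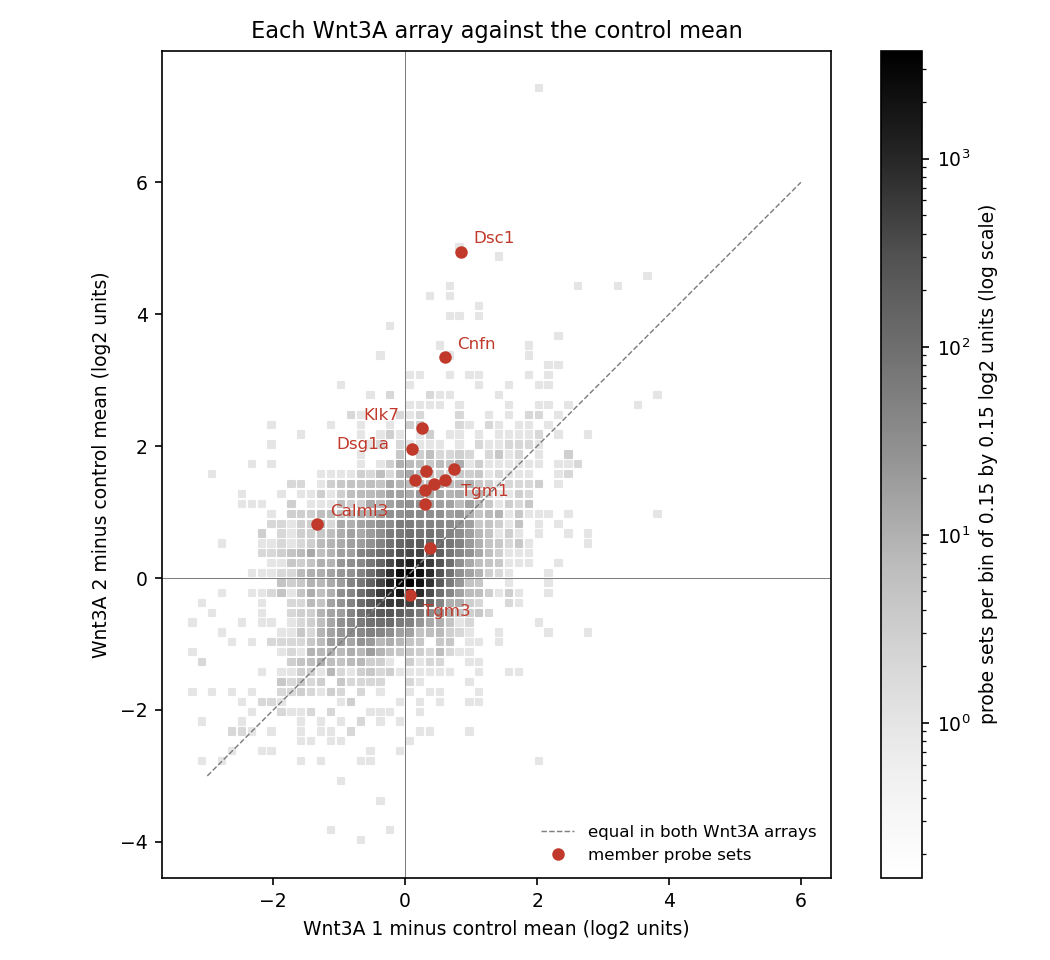
The horizontal axis is Wnt3A 1 minus the control mean and the vertical axis Wnt3A 2 minus the control mean, both in log2 units, with all 45037 probe sets binned in grey (darker for more probe sets, log scale) and the 14 member probe sets in red. Dsc1 (0.85 and 4.95) and Cnfn (0.60 and 3.35) lie far above the dashed line of equal values, and Calml3 lies on opposite sides of 0 on the 2 axes.

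Genes that work with the members were counted from 4 lists, one value per gene as the mean of its probe sets. The lists, too, were chosen with earlier results of these data known. By this measure 5 of 10 members had both Wnt3A arrays above both controls and 0 below, against 17.0% and 17.5% of 18193 genes. The member median was 1.04 log2 units. Limma called 0 genes of any list at an adjusted p under 0.05.

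Envelope and suprabasal proteins were the list most like the members: of 18 measured genes 13 had both Wnt3A arrays above both controls and 0 below, with a median difference of 1.04 and Wnt3A 2 highest for 17. Its largest differences were those of the suprabasal keratins Krt1 (4.72 ± 1.78) and Krt10 (3.14 ± 1.20) and of the envelope precursor gene Sprr1b (2.99 ± 0.72). The list median was 0.34 without Wnt3A 2 and 1.41 without Wnt3A 1.

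Other cornification enzymes had 5 of 12 measured genes above both controls and 1 below, with a median of 0.52. Asprv1, a protease that processes filaggrin, differed by 1.58 ± 0.55, the ceramide synthase gene Cers3 by 1.13 ± 0.32 and the cholesterol sulfotransferase gene Sult2b1 by 1.05 ± 0.14. Sult2b1 was at 0.68 and 0.45 in Wnt3A 1 and Wnt3A 2, against -0.52 and -0.45 in control 1 and control 2, so its Wnt3A arrays lay close together. The list median was 0.25 without Wnt3A 2 and 0.49 without Wnt3A 1.

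Among desquamation proteases and their inhibitors, 7 of 13 measured genes lay above both controls and 0 below, with a median of 0.34. The kallikrein genes Klk6 (0.98 ± 0.26), Klk10 (0.84 ± 0.32) and Klk8 (0.83 ± 0.18) differed most, and Klk6 and Klk8 flank Klk7 in the gene order. Klk8 was at 0.65 and 0.27 in Wnt3A 1 and Wnt3A 2, against -0.47 and -0.27 in the controls, so its groups did not overlap where those of Klk7 did. Wnt3A 2 was the highest array for 7 of the 13, and the list median was 0.24 without it and 0.62 without Wnt3A 1.

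Of other desmosome genes, 6 of 10 measured lay above both controls and 1 below, with a median of 0.20. Some of these gaps were very small. The lower Wnt3A array and the higher control were at 0.00 and 0.00 for Perp, 0.02 and -0.02 for Dsg1b, and 0.03 and -0.03 for Pkp1. After Dsg1b (0.99 ± 0.53) the furthest apart were Dsg2 (-0.61 ± 0.11), the desmoglein of simple epithelia, and the plakoglobin gene Jup (0.47 ± 0.19). Dsg2 was at -0.25 and -0.27 in Wnt3A 1 and Wnt3A 2, against 0.34 and 0.35 in control 1 and control 2, a direction opposite to that of Dsg1a, Dsg1b and Dsc1 and alike in both Wnt3A arrays.

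**Figure D4:**
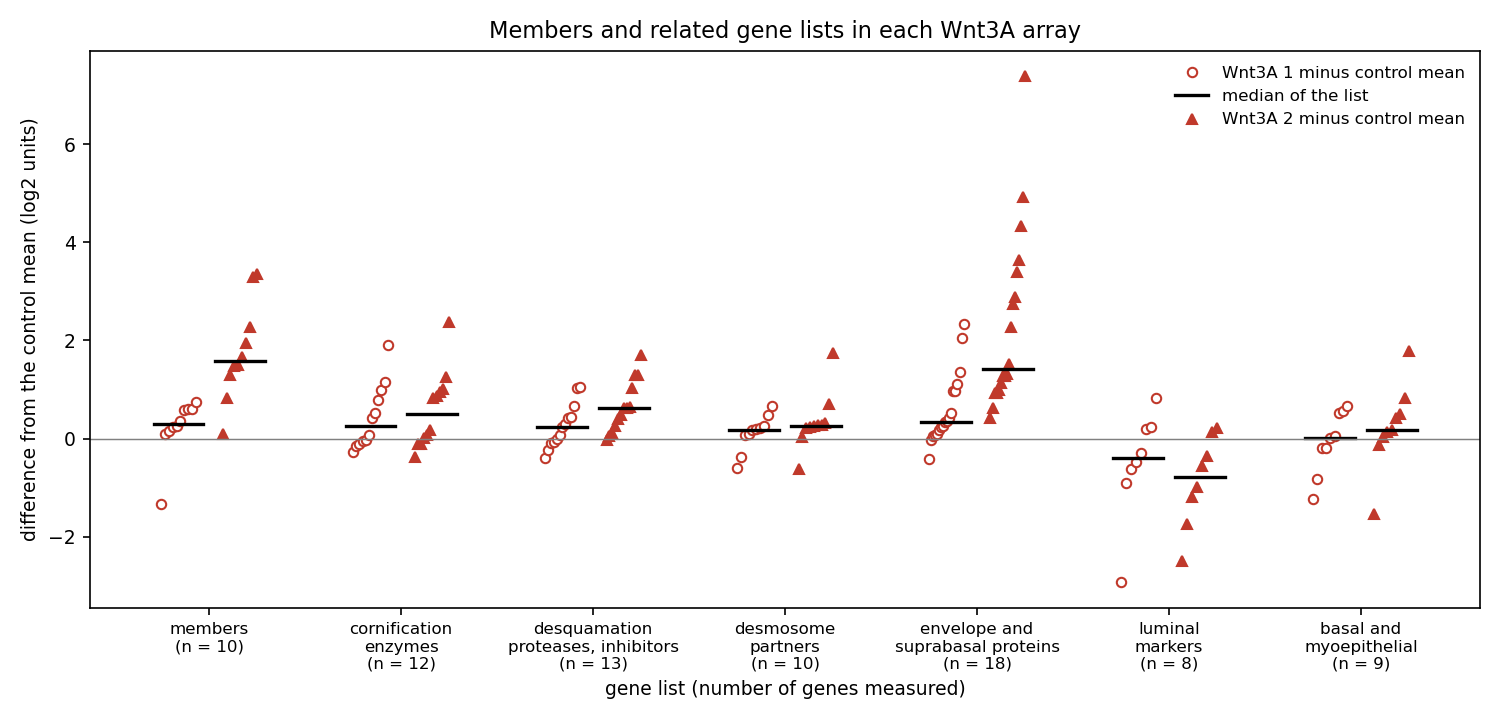
Each point is one gene's difference from the control mean in log2 units (mean of its probe sets), in Wnt3A 1 (open circles) and Wnt3A 2 (filled triangles), and black lines are list medians. The members and the envelope and suprabasal proteins have medians of 1.58 and 1.41 in Wnt3A 2 and of 0.30 and 0.34 in Wnt3A 1, and luminal markers lie mostly below 0.

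Markers of cell types that the colonies could hold were read beside these values. The spacing of stored numbers placed at least one probe set of each of Krt5, Krt14 and Trp63, which define basal cells, at log2 8 or above in every array, and likewise of Krt8 and Krt18, which define luminal cells. Basal and myoepithelial markers had a median of -0.20 and 0.09 in Wnt3A 1 and Wnt3A 2, against -0.18 and 0.17 in control 1 and control 2, with 1 of 9 genes above both controls and 1 below. The gene above was Itgb1 (0.49 ± 0.19) and the gene below was Oxtr (-1.39 ± 0.15). Oxtr was at -0.58 and -0.87 in the Wnt3A arrays, against 0.67 and 0.64 in the controls. Luminal markers had a median of -0.04 and -0.42 in the Wnt3A arrays, against 0.09 and 0.36 in the controls, with 0 of 8 above both controls and 4 below. The 4 were Foxa1 (-2.34 ± 0.48), Krt19 (-1.71 ± 0.80), Kit (-0.74 ± 0.33) and Pgr (-0.60 ± 0.19). The order differed between luminal genes: Krt8 was at 0.02 and -0.02 in Wnt3A 1 and Wnt3A 2, against -0.51 and 0.06 in control 1 and control 2.

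Hair follicle inner root sheath markers, listed because Tgm3 is also made there, had medians of 0.15 and -0.01 in Wnt3A 1 and Wnt3A 2 and 0.04 and -0.14 in the controls, with 2 of 6 above both controls and 0 below. Fibroblast markers had 0 of 6 genes above both controls and 1 below, endothelial markers 2 of 5 above and 0 below, and leukocyte markers 1 of 4 above and 0 below. Over all genes the shares were 17.0% above and 17.5% below. The 2 endothelial genes were Kdr (0.12 and 0.00 in the Wnt3A arrays, -0.06 and 0.00 in the controls) and Tek. The spacing of stored numbers placed Tek, Emcn, Lum and Ptprc below log2 4 in their lowest array. The part that cell makeup plays in the differences was not tested, and in RNA from whole colonies more cornifying cells and more RNA per cell cannot be told apart.

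The 5 probe sets of other genes nearest to the members' mean profile, out of 34931 with a single gene symbol, were sought by Euclidean distance over the 4 arrays. That profile was -0.09 and 1.45 in Wnt3A 1 and Wnt3A 2, against -0.49 and -0.14 in control 1 and control 2. The nearest were Tmprss4, a membrane serine protease gene (distance 0.165 log2 units), Ctsc, the cathepsin C gene (0.169), Dsg1b (0.208), Pou3f1, a POU transcription factor gene (0.216), and Fam83g (0.223). Other probe sets of Ctsc differed by 0.65 and 0.92, that of Pou3f1 by 1.51 and that of Fam83g by 0.75. With only 4 arrays this likeness is a description.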

How the data were processed

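RNA from 2 Wnt3A and 2 control cultures was measured on single-colour Affymetrix arrays. The deposited log2 values come from RMA, a tool that the submitters' processing notes name without a version. No source describes how each probe set's median over the 4 arrays came to be subtracted. Precision is limited by the number of arrays: a difference had a median standard error of 0.158 log2 units over all probe sets and 0.47 over the member probe sets. The 45037 probe sets other than array controls were fitted together by lmFit and eBayes of limma 3.58.1 (R 4.3.3) with no covariate, and two-sided p-values were adjusted over all probe sets by Benjamini-Hochberg (threshold 0.05), with 2 residual and 2.3 prior degrees of freedom, tested on simulated data first. Of these probe sets, 34945 had a single symbol in the platform annotation, 932 several and 9160 none, and the Entrez identifiers of all 10 members matched RefSeq.

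Level bands were read from the spacing of the stored single-precision numbers, by the lowest array. The members and lists were chosen with earlier results of these data known. The text names all members, the 3 genes of each related list with the largest absolute difference, Axin2, and the 5 probe sets nearest to the members' mean profile. Calm4, as a neighbour of a member, was named after its values were seen. Alternatives were quantile normalization, centred columns, gene means, robust eBayes, single-symbol probe sets, a filter on low levels, the replicate block and each array left out. Figures were drawn with matplotlib 3.10.9.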

Additional observations from a re-analysis of the deposited data

How the results depend on the processing

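Limma called 0 probe sets or genes at an adjusted p under 0.05 with all arrays and under each of the 11 alternatives run. An intensity trend was not run, because centred values carry no level. Of 150 member values under these alternatives, 147 kept their direction and 0 passed the threshold. The 3 that turned were Calml3 at 0.08 without control 2 and 0.82 without Wnt3A 1, and the Tgm3 probe set whose groups overlap at 0.08 without Wnt3A 2. With one array left out Calml3 ran from -1.33 to 0.82 and this Tgm3 probe set from -0.26 to 0.08. Under the replicate block, robust eBayes, single-symbol probe sets and the filter on low levels, a member's difference could not change. The same held for gene means of members with 1 probe set. For all these values the direction was fixed in advance. The median over the member probe sets was 0.95, and 0.31 to 1.48 with one array left out. The count of 9 of 14 member probe sets with both Wnt3A arrays above both controls was 8 after quantile normalization and after centring the columns, and 9 to 13 with one array left out. Fewer arrays make separation easier: over all probe sets the share was 30.7% to 38.3% with one array left out, against 17.4% with all. The count was 5 of 10 with one value per gene, and 4 of 14 with a minimum gap of 0.25 log2 units, which was chosen after seeing the data.

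The labels do not say that a replicate number marks a shared animal or culture, so the arrays are not known to be paired. Same-numbered arrays deviated together from their group means (r = 0.526 over 45037 probe sets, which are not independent replicates). With the replicate block limma called 0 probe sets (smallest adjusted p = 0.37), and 6 of 14 member probe sets, against 0 without it, had an unadjusted p under 0.05, with 4882 of all probe sets against 2801 without it. The differences and their median of 0.95 stay the same under the block by its construction. The standard error of each difference rests on 2 arrays a group.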

Other observations

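Some genes of the related and marker lists had Wnt3A 1 at least as far from the controls as Wnt3A 2, unlike most cornification genes followed here. These were chosen after their values were seen. Padi3, which encodes a peptidylarginine deiminase, was at 1.51 and -0.24 in Wnt3A 1 and Wnt3A 2, against 0.24 and -1.05 in control 1 and control 2, so its groups overlapped. Evpl, which encodes the envelope and desmosome linker envoplakin, was at 0.41 and 0.37 in the Wnt3A arrays and at -0.37 and -0.73 in the controls, a difference of 0.95 ± 0.16 log2 units (SE). Foxa1, a luminal transcription factor gene, was at -1.85 and -0.68 in the Wnt3A arrays and at 0.68 and 1.47 in the controls. Limma's adjusted p, with one value per gene, was 0.898 for Padi3, 0.435 for Evpl and 0.477 for Foxa1.

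Filaggrin and the inner root sheath keratin gene Krt73 also set the 2 Wnt3A arrays apart in different ways. Flg, the filaggrin gene, was at -0.63 and 3.18 in Wnt3A 1 and Wnt3A 2, against -1.07 and 0.63 in control 1 and control 2, with overlapping groups. Krt73 was at 1.30 and 2.97 in the Wnt3A arrays, against -1.30 and -1.47 in the controls, with no overlap. Of the same list, Tchh, Krt27 and Krt25 differed by 0.55, 0.48 and 0.17, and Krt71 and Krt72 by -0.14 and 0.00.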
